A study of Mus musculus with 24 samples.

Results

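The genes described here are 10 nuclear genes that control the shape and removal of mitochondria: Mfn1, Mfn2, Opa1, Dnm1l, Fis1, Mff, Mief1, Mief2, Pink1 and Fundc1. They were chosen by mouse symbol, and 10 of 10 were found among the 47643 Ensembl genes of the count table. Plantaris, a fast hindlimb muscle, came from wild-type C57BL/6 mice that had breathed normal air (11 samples) or tobacco smoke for 16 weeks (13 samples). The labels give no age or sex, no duration for the air group, and no word on pooling or on whether samples are separate animals, so p-values measure the spread between these samples. The series title concerns smoking, muscle impairment and the aryl hydrocarbon receptor, and the comparison asks how smoke-exposed plantaris differs from plantaris kept in air. RNA was read from the 3′ end of transcripts, so values follow transcript number and not transcript length. Levels are compared between groups and not between genes. Ratios of members within a sample are likewise compared only between groups.

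Mitochondria join and divide continually. The mitofusins Mfn1 and Mfn2 are GTPases that tether and fuse outer membranes, and Opa1 is the dynamin-like GTPase that fuses inner membranes and keeps cristae in shape. Dnm1l encodes DRP1, the GTPase that constricts and divides the organelle after it is recruited to the outer membrane by proteins such as Mff, Mief1, Mief2 and Fis1. Pink1, a kinase that gathers on damaged mitochondria, and Fundc1, an outer membrane receptor that binds autophagosome proteins, mark mitochondria for mitophagy, their digestion by autophagy. In skeletal muscle these processes set the form of the mitochondrial network between the myofibrils, and loss of mouse mitofusins or Opa1 from muscle is known to cause wasting.

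Total counts ranged from 2515697 to 4528845 per sample, so that a detection floor of 3 counts equalled 0.662 to 1.19 CPM (counts scaled to library size). The range follows library size, and the floor allows for counting error only, since reads may include PCR copies. Fast muscle markers were abundant in every sample, with 9 of 9 tested, 0 called in edgeR (1 at an unadjusted p under 0.05, Myh4 at 0.16 on the log2 scale) and a summed level of 170000 to 266900 CPM in air and 179300 to 228900 CPM in smoke. Slow muscle markers (7 of 7 tested), adipocyte (6 of 6), endothelial (5 of 5), macrophage (4 of 6), fibroblast and tendon (6 of 6) and smooth muscle markers (2 of 4) held 0 genes called in edgeR, with 3, 2, 1, 0, 3 and 1 genes at an unadjusted p under 0.05. The 3 slow muscle genes had negative log2 fold changes (Myl2 −0.46, Atp2a2 −0.35 and Myl3 −0.29), as did the 3 fibroblast and tendon genes (Tnmd −0.75, Col1a1 −0.37 and Col3a1 −0.32) and the endothelial gene Kdr (−0.17). Those of the adipocyte genes Retn (0.37) and Cfd (0.29) and of the smooth muscle gene Myh11 (0.50) were positive. The other slow muscle genes were positive too (Tnnc1 0.59, Tnni1 0.43, Myh7 0.15 and Tnnt1 0.02), so that this list was split. The median log2 fold change of the tested markers was 0.02 for slow muscle, −0.27 for fibroblast and tendon and −0.03 for endothelium. The part of these markers in the results below was not tested. No marker of any list stayed at 3 counts or fewer in every sample. Blood and nerve markers moved with the group. Of 5 blood genes, 3 haemoglobin genes were called lower, and the summed level of all 5 was 486 to 1444 CPM in air and 369 to 883 CPM in smoke. Of 8 Schwann cell and myelin genes, 4 were called higher, and the summed level of all 8 was 131 to 306 CPM in air and 197 to 915 CPM in smoke. Of 13 tested clock genes, 3 were called higher and 1 lower.

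Of the 10 genes, Opa1 fell under smoke and no other member passed the test. All 10 passed the low-count filter. By edgeR's quasi-likelihood test with Benjamini-Hochberg adjustment over 10159 genes, 1 of 10 was called at an adjusted p under 0.05, against 1.92% of all tested genes (1.19% called lower). At an unadjusted p under 0.05 there were 5 (Opa1, Mfn1, Mief2, Fundc1 and Fis1), against 15.5% of all genes. All 5 were lower, as were 7.95% of all genes. At an adjusted p under 0.10 there were 2 (Opa1 and Mfn1), against 4.07% of all genes. The log2 fold change was negative for 9 of 10, against 48.4% of all genes, and its median was −0.12 over the 10 members and 0.0066 over all tested genes. In 4 members (Opa1, Mfn1, Mief2 and Fundc1) at least 12 of 13 smoke samples lay below the air mean, a pattern seen in 5.56% of all genes. In 0 of 10 did the CPM ranges of the groups stay apart, as they did in 0.0295% of all genes. In bulk muscle, fewer cells of a type and less RNA per cell cannot be told apart.

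**Figure D1:**
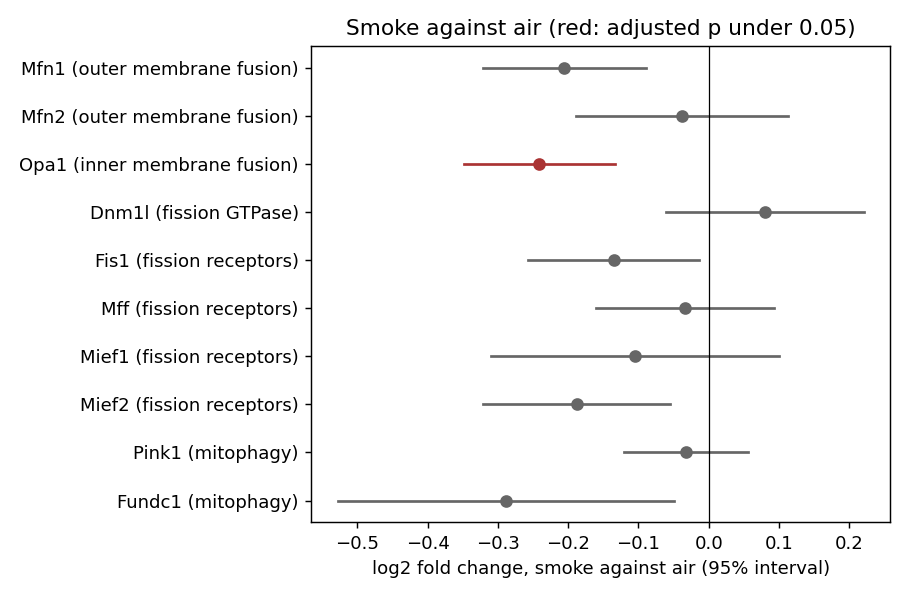
Log2 fold change of each member, smoke against air, with its 95% interval (x axis) from edgeR over 11 air and 13 smoke samples; members with their role are on the y axis. The interval of Opa1, in red, runs from −0.35 to −0.13, and only the point of Dnm1l lies to the right of 0.

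Opa1, the inner membrane fusion GTPase, had a lowest, median and highest level of 54.0, 64.1 and 69.5 CPM in air and 49.7, 52.8 and 59.2 CPM in smoke. All 13 smoke samples lay below the air mean, 9 of them below the lowest air sample, and 9 of 11 air samples lay above the highest smoke sample, so that the groups overlapped only between 54.0 and 59.2 CPM. The mean fell from 63.5 ± 4.55 (SD, n = 11) to 53.7 ± 2.57 CPM (SD, n = 13), by 0.24 on the log2 scale (SE 0.053, 95% interval of the log2 fold change −0.35 to −0.13, edgeR adjusted p = 0.0107). Opa1 ranked 56 by p among all tested genes. The call held in 24 of 24 fits that left out a sample, with edgeR adjusted p from 0.00615 to 0.0231. With the blood score as a covariate the log2 fold change was −0.24 and the call was lost (edgeR adjusted p = 0.0876), and with the myelin score it was −0.22 (edgeR adjusted p = 0.110). With the clock index it was −0.28 (edgeR adjusted p = 0.0241).

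Mfn1, a mitofusin of the outer membrane, lay just outside the threshold. Its lowest, median and highest levels were 125, 147 and 171 CPM in air and 108, 129 and 146 CPM in smoke. All 13 smoke samples were below the air mean, and 6 of 11 air samples were above the highest smoke sample. The means were 150 ± 14.1 CPM (SD, n = 11) and 130 ± 10.9 CPM (SD, n = 13), with a log2 fold change of −0.21 (SE 0.057, 95% interval −0.32 to −0.09, edgeR adjusted p = 0.0511). RLE scaling gave an edgeR adjusted p = 0.0489 and DESeq2 an adjusted p = 0.0143. It did not pass in edgeR without a low-count filter (−0.21, adjusted p = 0.0981). Nor did it pass in edgeR with the blood score (−0.21, adjusted p = 0.178) or the myelin score (−0.20, adjusted p = 0.207) as a covariate. With the clock index it was −0.22 (edgeR adjusted p = 0.0912). The SE was 0.070 with each of these covariates. Mfn1 passed in 9 of 24 fits that left out a sample (air sample 1, 2, 9 or 11, or smoke sample 1, 3, 11, 12 or 13), with edgeR adjusted p from 0.0274 to 0.0494 in those 9 fits and up to 0.0949 in the others.

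Mfn2, the other mitofusin, which also links mitochondria to the endoplasmic reticulum, spread widely within both groups. It had 280, 396 and 491 CPM as its lowest, median and highest levels in air and 290, 399 and 467 CPM in smoke, and the groups covered almost the same range. The lowest values were those of air sample 11 and smoke sample 10. On the log2 scale the groups differed by −0.04 (SE 0.074, 95% interval −0.19 to 0.11, edgeR adjusted p = 0.867). The sign turned with the myelin score (0.03) or the clock index (0.12) as a covariate, and neither passed.

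The promoters of the 3 members with the smallest p-values are shown to set the letters upstream of these genes beside each other, since each of these transcripts was below the air mean in at least 12 of 13 smoke samples. Each line gives the 150 bases before the RefSeq transcription start (build GRCm38.p6), 5′ to 3′ on the gene's strand, with motif matches in capitals. The windows are chr16:29579184-29579333 for Opa1, chr3:32529332-32529481 for Mfn1 and chr11:60728248-60728397 for Mief2, all on the plus strand.
Opa1: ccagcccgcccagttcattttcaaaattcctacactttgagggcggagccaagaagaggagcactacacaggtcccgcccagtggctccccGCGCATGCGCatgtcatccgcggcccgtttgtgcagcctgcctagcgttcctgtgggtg
Mfn1: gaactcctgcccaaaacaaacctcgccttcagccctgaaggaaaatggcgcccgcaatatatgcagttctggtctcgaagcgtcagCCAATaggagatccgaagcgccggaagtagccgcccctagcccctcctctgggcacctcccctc
Mief2: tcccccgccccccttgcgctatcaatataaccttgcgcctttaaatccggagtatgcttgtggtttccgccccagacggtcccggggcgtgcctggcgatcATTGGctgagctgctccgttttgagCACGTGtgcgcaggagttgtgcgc
The capitals mark the NRF1 motif (nuclear respiratory factor, an activator of mitochondrial genes) in Opa1, the box CCAAT in Mfn1, and CCAAT on the opposite strand and the E-box CACGTG in Mief2. Motifs were searched on both strands over 250 bases before each start. In Opa1 the NRF1 match begins 59 bases before the start and reads the same on both strands, and in Mief2 the E-box, a palindrome, begins 24 bases before it. The NRF1 motif was in 3.74% of 32851 RefSeq windows and in 2 of 15 windows of the members (Opa1 and Pink1). The E-box was in 6.02% of all windows and in 1 of the 15 (Mief2). CCAAT was in 33.8% of all windows and in 6 of the 15, including Opa1 upstream of the printed stretch. The ERR response element TNAAGGTCA, the D-box TTATGTAA or TTACGTAA, and the cyclic AMP response element TGACGTCA were in none of the 15 windows. They were in 1.14%, 0.819%, 0.113% and 1.55% of all windows. No motif searched was shared by Opa1, Mfn1 and Mief2 other than CCAAT.

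Dnm1l, the fission GTPase, was the only member with a positive log2 fold change. Its lowest, median and highest levels were 32.4, 38.4 and 46.1 CPM in air and 33.0, 38.8 and 46.9 CPM in smoke, and the groups overlapped over nearly their whole range. Smoke samples lay on both sides of the air mean, 7 above and 6 below. The log2 fold change was 0.08 (SE 0.069, 95% interval −0.06 to 0.22, edgeR adjusted p = 0.642).

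Of the 4 outer membrane proteins that bring DRP1 to mitochondria, none passed in edgeR or in DESeq2, and 2 (Mief2 and Fis1) had an unadjusted p under 0.05 in edgeR. Mief2 had 94.0, 110 and 123 CPM as its lowest, median and highest levels in air and 75.9, 96.1 and 129 CPM in smoke. 12 of 13 smoke samples were below the air mean and 6 below the lowest air sample, while smoke sample 11 held the highest value of both groups. Mief2 had a log2 fold change of −0.19 (SE 0.065, 95% interval −0.32 to −0.06, edgeR adjusted p = 0.128). Without smoke sample 11 it was −0.23 and passed (edgeR adjusted p = 0.0330).

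Fis1, an outer membrane protein linked to fission and to the clearance of mitochondria, had lowest, median and highest levels of 52.2, 62.2 and 68.4 CPM in air and 48.8, 55.5 and 62.2 CPM in smoke. In 11 of 13 smoke samples it was below the air mean, and 5 air samples were above the highest smoke sample. Smoke differed from air by −0.13 on the log2 scale (SE 0.060, 95% interval −0.26 to −0.01, edgeR adjusted p = 0.252). With the clock index as a covariate it was −0.26 and passed (edgeR adjusted p = 0.0355). Mff, the main DRP1 receptor in many cells, ranged from 55.5 to 71.9 CPM in air and from 52.8 to 73.0 CPM in smoke. Its log2 fold change was −0.03 (SE 0.062, 95% interval −0.16 to 0.09, edgeR adjusted p = 0.857). Mief1, the close relative of Mief2, ranged from 15.3 to 22.5 CPM in air and from 12.2 to 21.6 CPM in smoke. It had 35 to 91 counts per sample and the second widest interval of the members, −0.31 to 0.10 on the log2 scale around an estimate of −0.11 (edgeR adjusted p = 0.682). With the blood score as a covariate the estimate was −0.22 (edgeR adjusted p = 0.468), and without air sample 7 it was −0.07 (edgeR adjusted p = 0.822).

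Of the mitophagy genes, Pink1 had the narrowest interval of all members. Its lowest, median and highest levels were 445, 492 and 534 CPM in air and 434, 476 and 528 CPM in smoke, and the groups overlapped almost completely. Its log2 fold change was −0.03 (SE 0.044, 95% interval −0.12 to 0.06, edgeR adjusted p = 0.789), a change of −2.21% with an interval of −8.04% to 3.98%. Fundc1, the receptor linked to mitophagy under low oxygen, had the most negative log2 fold change and the widest interval. Its levels were 9.90, 15.3 and 20.9 CPM in air and 8.46, 12.2 and 16.5 CPM in smoke (lowest, median and highest), from 22 to 86 counts per sample. In 12 of 13 smoke samples it was below the air mean, but 3 of 11 air samples were below the smoke median. The fitted log2 difference was −0.29 (SE 0.12, 95% interval −0.53 to −0.05, edgeR adjusted p = 0.210).

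**Figure D2:**
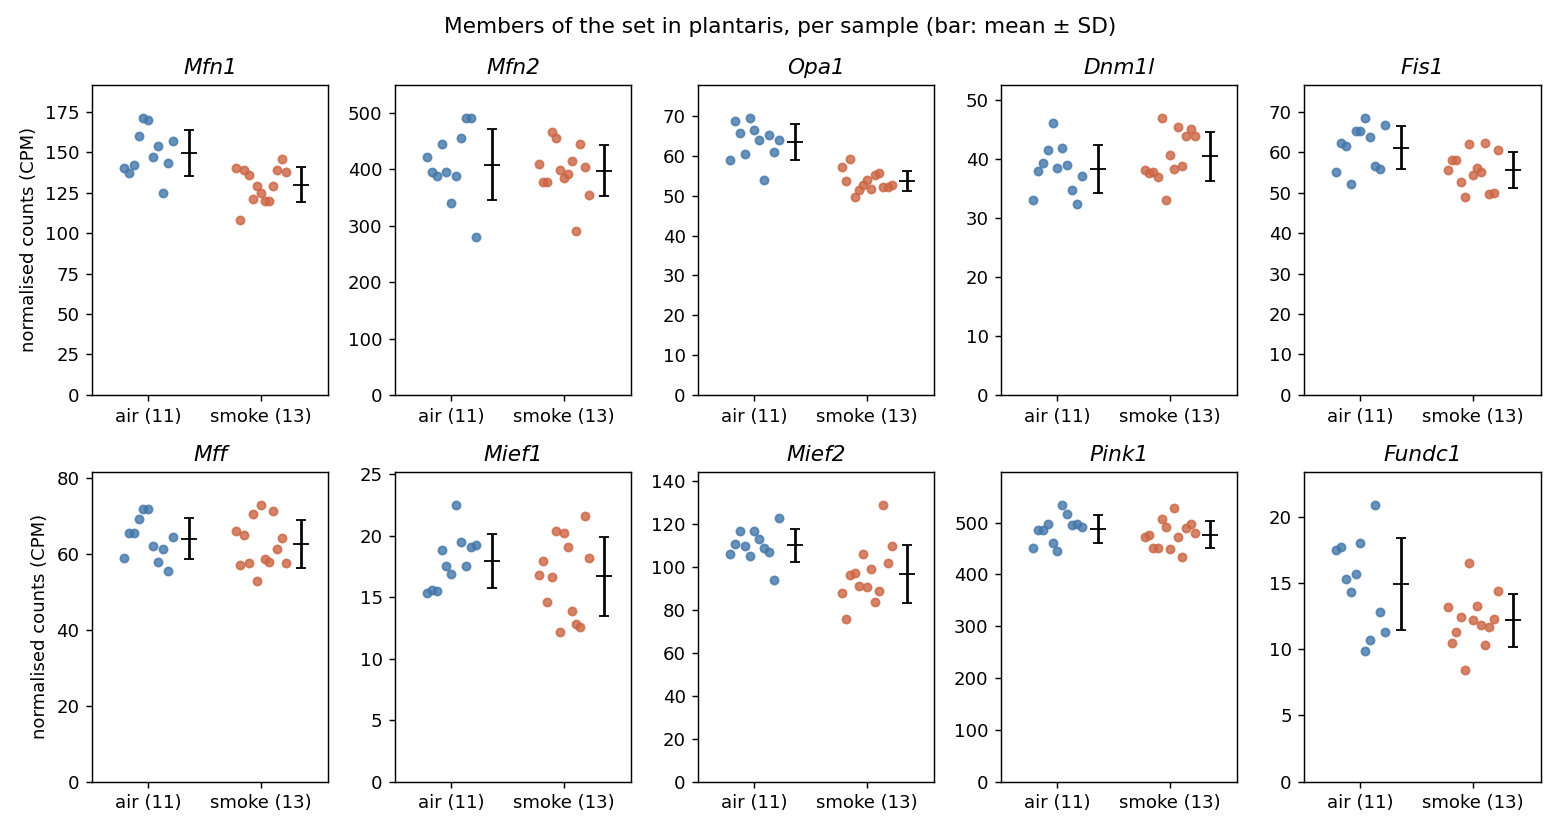
Normalised counts in CPM (y axis, from 0) of the 10 members in every air (11) and smoke (13) sample; each point is a sample and the bar is the mean ± SD. The smoke points of Opa1 sit between 49.7 and 59.2 CPM and the air points between 54.0 and 69.5 CPM, while the points of Mfn2 and Pink1 cover about the same range in both groups.

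Annotation in GENCODE M21 shows no other gene over Opa1 (chromosome 16), Mfn1 (chromosome 3), Fis1 (chromosome 5) or Fundc1 (chromosome X). Mfn2 and Dnm1l each overlap 1 predicted gene on the opposite strand. Mff overlaps 1 gene on each strand, Mief1 and Mief2 overlap 1 gene each on the same strand and Pink1 overlaps 2. Whether strand was used in counting is not given in the sources used here, so reads of Mfn2, Dnm1l and Mff cannot be told apart from those of genes on the opposite strand. For Mff, Mief1, Mief2 and Pink1, the assignment of reads shared with genes on the same strand is not given either.

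Ratios of counts within a sample do not depend on library scaling and are given as a description. The log2 ratio of Opa1 to Dnm1l, the inner membrane fusion GTPase to the fission GTPase, had a lowest, median and highest value of 0.47, 0.78 and 0.91 in air and 0.14, 0.43 and 0.68 in smoke. All 13 smoke samples were below the air mean and 8 were below the lowest air sample, beside 9 for Opa1 by itself. Of the 11 air samples, 7 were above the highest smoke sample, beside 9 for Opa1 by itself. The ratio contains Opa1 and is not a separate result. The means were 0.73 ± 0.15 (SD, n = 11) and 0.41 ± 0.17 (SD, n = 13). The ratio of Mfn2 to Mfn1 ran from 0.83 to 1.97 in air and from 1.17 to 1.91 in smoke, and 2 of the 13 smoke values lay under the mean of air. The ratio of Mff to Fis1 had means of 0.07 ± 0.15 (SD) and 0.17 ± 0.21 (SD), and that of Mief1 to Mief2 of −2.61 ± 0.20 (SD) and −2.54 ± 0.38 (SD). For these last ratios the difference of the means was smaller than the SD in either group.

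**Figure D3:**
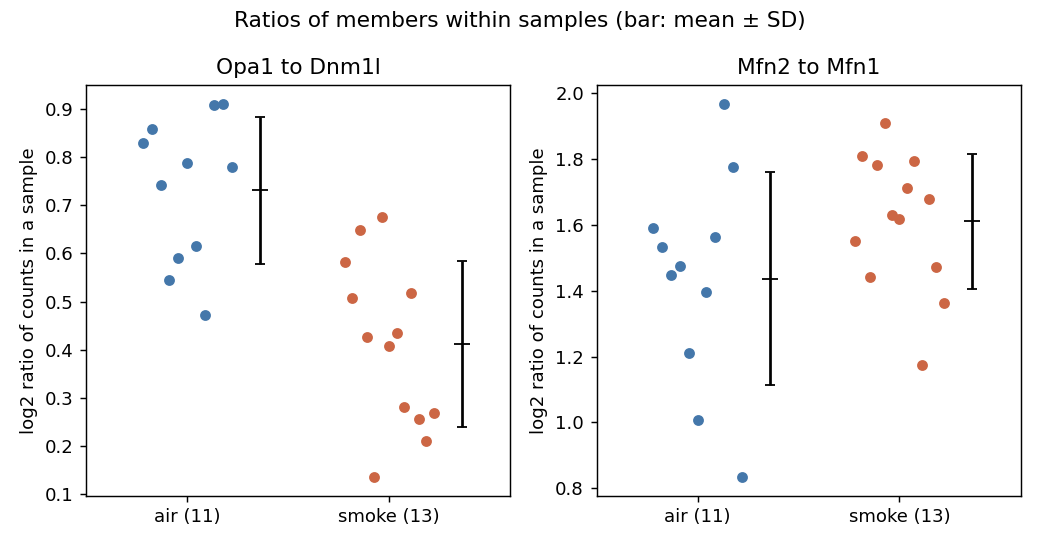
Log2 ratio of counts within each sample (y axis, not from 0) for Opa1 to Dnm1l and for Mfn2 to Mfn1, in 11 air and 13 smoke samples, with the mean ± SD as a bar. For Opa1 to Dnm1l, 8 of 13 smoke points lie below the lowest air point at 0.47, and for Mfn2 to Mfn1 the groups overlap.

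Within groups, the members differed in how far samples spread. The coefficient of variation (SD over mean) of Opa1 was 7.17% in air, near the 7.03% that counting alone gives at its mean count, and 4.78% in smoke, below it. The narrow smoke range of Opa1 is therefore tighter than counting error would give on average. That of Pink1 was 5.48% and 5.54%, against 2.45% from counting. Mfn2 spread by 15.4% in air and 11.5% in smoke, where counting gives 2.67%, the highest multiple of the counting value among the members in both groups. Mief1 spread by 12.1% in air and 19.2% in smoke, where counting gives 12.9%, so that its spread exceeded the counting value in smoke and not in air. Fundc1 spread by 23.3% in air and 16.3% in smoke, where counting gives 14.6%. Mief2 spread by 6.91% in air and 13.8% in smoke, the latter with the high smoke sample 11.

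Correlations between members within groups were mostly weak. Counting error makes up much of the spread of several members, Opa1, Mief1 and Dnm1l among them, and draws their correlations toward 0, so that a weak value does not show that genes vary apart. Over 45 pairs, the correlation of deviations from the group means of log2 CPM (n = 24) had a median Pearson's r of −0.014, and 22 pairs were positive. After Benjamini-Hochberg adjustment over the 45 pairs 1 passed, Mfn2 with Fis1, and it was negative. Pearson's r was −0.70 (permutation p = 0.00012, adjusted p = 0.0054) and Spearman's rho −0.76 (permutation p = 2e-05, adjusted p = 9e-04). It was −0.66 within air and −0.76 within smoke, and −0.69 without the 2 samples farthest from the Mfn2 median. The most positive pair, Dnm1l with Mff, had r = 0.50 (permutation p = 0.0152, adjusted p = 0.200) and rho = 0.47 (permutation p = 0.0262, adjusted p = 0.168), and r fell to 0.33 without 2 samples. Opa1 and Mfn1 were both lower in all 13 smoke samples than the air mean. Within groups their deviations had r = 0.07 (permutation p = 0.773, adjusted p = 0.915) and rho = 0.14 (permutation p = 0.540, adjusted p = 0.838), and r was 0.15 without 2 samples.

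**Figure D4:**
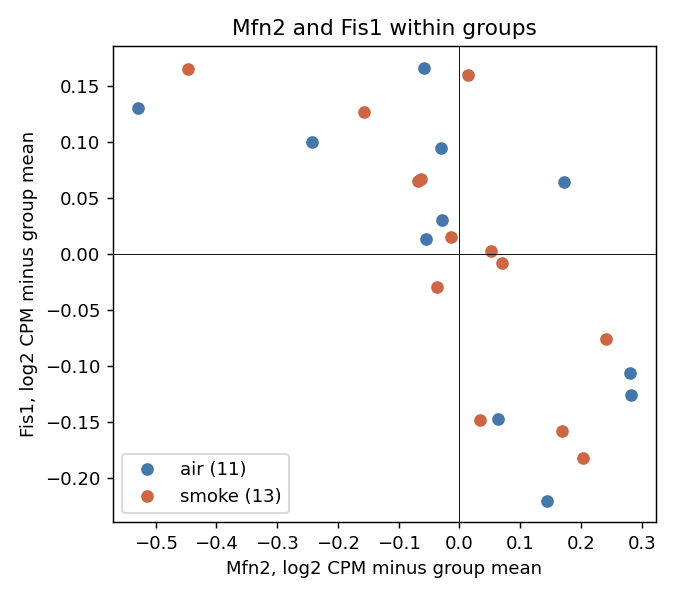
Deviation from the group mean of log2 CPM for Mfn2 (x axis) and Fis1 (y axis) in 11 air and 13 smoke samples; each point is a sample. Most samples with more Mfn2 than their group's mean have less Fis1, with exceptions in both groups, at r −0.66 in air and −0.76 in smoke.

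Among the 10158 other tested genes, those whose within-group deviations were most like each member's over 24 samples are given as a description. For Mfn2 they were Cox7c (r = 0.94), Atp5a1 (0.92) and Ndufa1 (0.92), subunits of cytochrome oxidase, ATP synthase and complex I. For Fis1 they were Urod (0.82), Rpl10a (0.81) and Cops9 (0.79). For Opa1 they were Fundc2 (0.70), a relative of Fundc1, then Rpl23a (0.69) and Ak6 (0.68). For Mfn1 they included Sirt2 (0.73) and Mdh2 (0.73), a mitochondrial dehydrogenase. For Dnm1l they were Hsd17b10 (0.75), Nasp (0.66) and Tcea3 (0.66), and for Mff C1qa (0.75), Rps28 (0.70) and Rpl23a (0.70). Mief1 was most like Dirc2 (0.73), Rbbp5 (0.71) and Cdk18 (0.68), and Mief2 most like Rab40c (0.73), Mbd6 (0.70) and Slc38a3 (0.69). Pink1 was most like Ntmt1 (0.69), Tnk2 (0.67) and Gm44093 (0.66), and Fundc1 most like Max (0.77), Phf14 (0.67) and Tppp (0.67). The values for members other than Mfn2 and Fis1 lay between 0.66 and 0.77. For each member the genes named are the most alike of 10158. Whether their values exceed what such a choice alone gives over 24 samples was not tested.

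Other genes of the pathways were counted from 7 lists. Of 99 genes in the table, 91 were tested, and 2 of them fell while 0 rose (edgeR adjusted p under 0.05, 2.20% called against 1.92% of all genes). At an unadjusted p under 0.05 there were 12, or 13.2%, against 15.5% of all genes, and all 12 were lower. The log2 fold change was negative for 65 of 91 (71.4%, against 48.4% of all genes), with a median of −0.06.

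The genes called were Trak2 and Mtfp1. Trak2, an adaptor that ties mitochondria to motor proteins, had lowest, median and highest levels of 150, 184 and 204 CPM in air and 132, 148 and 176 CPM in smoke. All 13 smoke samples were below the air mean and 9 of 11 air samples were above the highest smoke sample. Its log2 fold change was −0.26 (SE 0.055, edgeR adjusted p = 0.00773), and the call was lost with the myelin score (edgeR adjusted p = 0.0741) or the clock index (edgeR adjusted p = 0.102) as a covariate. The log2 fold change of Trak2 ran from −0.28 to −0.21 over the 11 alternatives that kept every sample or used the replicate block. Of the motility list (6 of 7 tested, 1 lower, 0 higher), Trak1 followed at −0.18 (edgeR adjusted p = 0.0607, called lower with a minimum count of 30, with 1 surrogate variable, and without air sample 1, smoke sample 10 or smoke sample 13) and Rhot2, the outer membrane GTPase that holds these adaptors, at −0.15 (edgeR adjusted p = 0.177). Mtfp1, an inner membrane protein that promotes fission, had 81.6, 92.6 and 111 CPM in air and 66.7, 77.3 and 96.4 CPM in smoke (lowest, median and highest), with 9 smoke samples below the lowest air sample. Its log2 fold change was −0.24 (SE 0.064, edgeR adjusted p = 0.0402). Mtfp1 lost the call in 13 of 24 fits that left out a sample (air sample 1, 3, 5, 6 or 8, or smoke sample 2, 5, 6, 7, 8, 9, 10 or 11), with edgeR adjusted p from 0.0501 to 0.0944 there. It was also lost without a low-count filter (edgeR adjusted p = 0.0670) and with the blood score (edgeR adjusted p = 0.203), the myelin score (edgeR adjusted p = 0.0739) or the clock index (edgeR adjusted p = 0.0508). The log2 fold change of Mtfp1 ran from −0.29 to −0.23 over the 11 alternatives that kept every sample or used the replicate block. In the list of fission accessory genes and DRP1 regulators (14 of 17 tested, 1 lower, 0 higher), Sh3glb1 was at −0.12 (edgeR adjusted p = 0.150) and Mtfr1l at −0.09 (edgeR adjusted p = 0.376).

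The other 5 lists held 0 called genes in edgeR over all 24 samples without covariates. Among genes for OPA1 processing and fusion (13 of 14 tested, 2 at an unadjusted p under 0.05), the protease gene Parl was at −0.22 (edgeR adjusted p = 0.144), Slc25a46 at −0.19 (edgeR adjusted p = 0.158) and Miga2 at −0.30 (edgeR adjusted p = 0.366). Among the genes of the MICOS complex and cristae (11 of 12 tested, 3 at an unadjusted p under 0.05), Apool was at −0.28 (edgeR adjusted p = 0.130). Immt, the MICOS scaffold, was at −0.12 (edgeR adjusted p = 0.196), and 2410015M20Rik, an older name of the MICOS subunit Micos13, at −0.12 (edgeR adjusted p = 0.269). Of the mitophagy receptors and adaptors (16 of 18 tested, 2 at an unadjusted p under 0.05), the autophagy receptor Optn was at −0.22 (edgeR adjusted p = 0.0650), Bcl2l13 at −0.19 (edgeR adjusted p = 0.226) and Tbk1 at −0.38 (edgeR adjusted p = 0.476). Optn was called lower in edgeR with the clock index, with 1 surrogate variable, without air sample 11 and without smoke sample 8. DESeq2 called Optn, Sh3glb1 and Trak1 besides Trak2 and Mtfp1. The median log2 fold change was −0.05 for OPA1 processing and fusion, −0.10 for MICOS and cristae, −0.09 for the fission list, −0.07 for mitophagy receptors and adaptors and −0.11 for motility.

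The remaining lists had the medians nearest to 0. Genes of the PINK1 and Parkin pathway (16 of 16 tested, 0 at an unadjusted p under 0.05) had a median log2 fold change of −0.01, with Usp15 at 0.17 (edgeR adjusted p = 0.421), Park7 at −0.10 (edgeR adjusted p = 0.489) and Tomm70a at −0.07 (edgeR adjusted p = 0.584). Genes of autophagy initiation and ATG8 conjugation (15 of 15 tested, 0 at an unadjusted p under 0.05) had a median of −0.02, with Map1lc3a at 0.15 (edgeR adjusted p = 0.332, called higher without air sample 11), Map1lc3b at −0.08 (edgeR adjusted p = 0.548) and Rb1cc1 at −0.11 (edgeR adjusted p = 0.584). Nuclear subunits of oxidative phosphorylation, set beside these lists after their values were known, had a median log2 fold change of −0.12 over 81 tested genes, beside −0.12 over the 10 members. Of these 81, 10 were called (12.3%, against 1.92% of all genes), all lower. At an unadjusted p under 0.05 there were 46 (56.8%), all lower, and 75 (92.6%) had a negative log2 fold change, beside 5 and 9 of the 10 members.

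**Figure D5:**
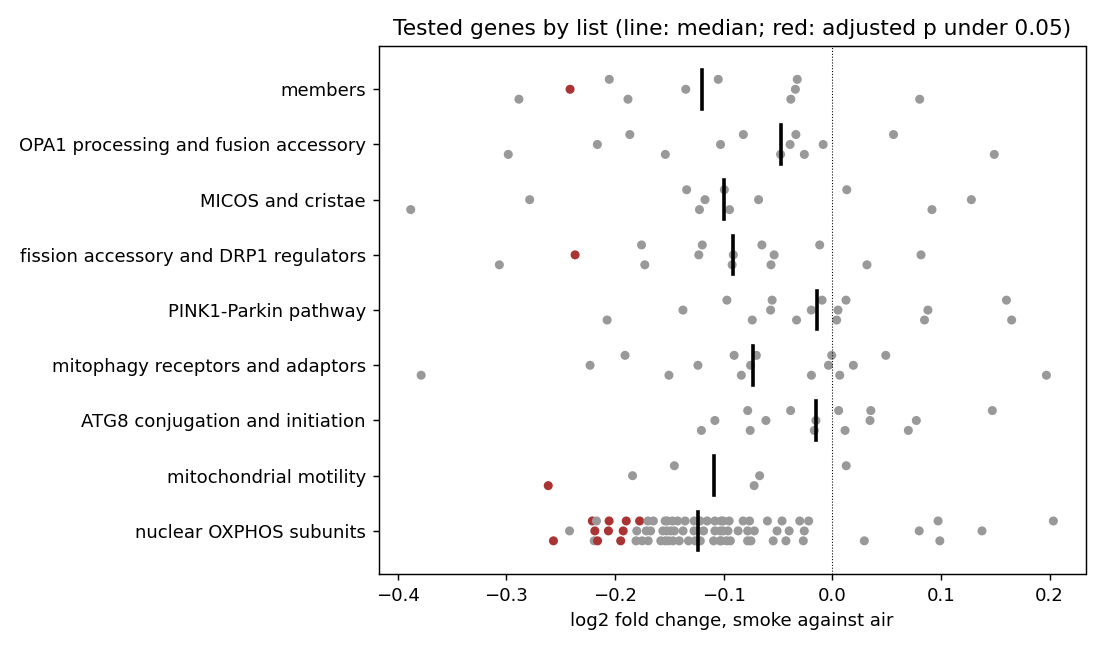
Log2 fold change, smoke against air (x axis), of every tested gene of the members, of 7 pathway lists and of nuclear OXPHOS (oxidative phosphorylation) subunits; each point is a gene, the line is the list's median, and red points passed an adjusted p under 0.05 in edgeR. Medians of the members and of OXPHOS subunits lie at −0.12, and those of the PINK1 and ATG8 lists at −0.01 and −0.02.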

How the data were processed

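Gene-level reads of 24 plantaris samples were analysed. The authors deposited raw counts per Ensembl gene ID, 1 column per sample. Per the labels' protocols, Lexogen QuantSeq 3′ FWD chemistry was used. The submitters' processing notes name STAR, DESeq2 and the build mm9 without versions or roles. The counting tool, annotation, strand setting and use of molecular identifiers are not given in the sources used here. Per the file headers all samples shared lane 6, with sheet numbers 229 to 241 for smoke and 242 to 252 for air, so that sheet position cannot be told apart from treatment. Sample titles gave treatment and replicate number. Symbols for 47224 IDs came from GENCODE M21. Its build, GRCm38, differs from the one named, so printed coordinates belong to the reference only. Symbols missing there were matched through RefSeq synonyms.

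edgeR 4.0.16 in R 4.3.3 kept 10159 genes (filterByExpr, minimum count 10), scaled by TMM and tested smoke against air over all 24 samples without covariates. The procedure was tested on simulated data with planted changes of 1.5-fold and 2-fold, of which it called 73.7% and 99%. Smaller changes, such as those of all members here, were not simulated. CPM values were computed here on TMM-scaled libraries. Correlations used log2 CPM with a prior count of 2, and 100000 permutations within groups, two-sided. Ratios added 0.5 to each count. All 133 pairs of same-group samples differed by more than sampling noise (chi-square per gene at least 2.51, at most 18.7), and none was merged.

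Named were all members, called genes of each list or the 3 with the smallest p, and the 3 genes most like each member, of which 1 is not reported here. Alternatives were RLE scaling, DESeq2 1.42.0, limma 3.58.1 voom, other filters, removal of Gm42418, an adjusted p under 0.10, a replicate block, 1 surrogate variable (sva 3.50.0), blood, myelin and clock covariates, and leaving out each sample. Members and lists were chosen with earlier results of these data known.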

Additional observations from a re-analysis of the deposited data

How the results depend on the processing

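Opa1 kept its direction in every fit run and its call in 8 of 11 alternatives and in all 24 fits that left out a sample, with log2 fold changes from −0.28 to −0.22. The count of members called, 1 in the report, was 2 with RLE scaling, DESeq2, a minimum count of 30, 1 surrogate variable or an adjusted p under 0.10 (4.07% of all genes), each time Opa1 and Mfn1, and 2 with the clock index, Opa1 and Fis1. It was 0 with the blood score and 0 with the myelin score in edgeR. At an unadjusted p under 0.05 these fits held 2 and 3 members, against 1241 and 1206 of all 10159 genes. Leaving out a sample gave 1 to 3 members, the 3 without smoke sample 11 (Opa1, Mfn1 and Mief2). Mfn2 reversed to 0.0328 with the myelin score and to 0.117 with the clock index, where it did not pass. Estimates near 0 moved without passing when a sample was left out, for Mfn2 from −0.09 (without air sample 11) to −0.01 (without smoke sample 10), for Mff from −0.06 (without smoke sample 7) to −0.02 (without smoke sample 6) and for Pink1 to −0.02 (without air sample 7). With the myelin score Mff was −0.02 and Pink1 −0.02, and with the clock index Pink1 was −0.01. The count over the pathway lists, 2 in the report, was 5 with DESeq2, 4 with 1 surrogate variable, 1 without a filter (Trak2), 1 with the blood score (Trak2), 1 with the clock index (Optn, not called in the report) and 0 with the myelin score (8 at an unadjusted p under 0.05), and 1 to 4 when a sample was left out, the 4 without air sample 11 (Mtfp1, Trak2 and Optn lower, Map1lc3a higher). Over all genes, 195 were called in the report, 201 with RLE scaling, 191 with a minimum count of 30, 201 without a filter and 159 with the clock index. DESeq2 called 330, 1 surrogate variable 436, the blood score 56 and the myelin score 77, and leaving out a sample 141 to 254. Blood, myelin and clock scores correlate with the group at r −0.56, 0.56 and 0.60. Without the 2 samples farthest from the median, 2 pairs of members passed in place of 1. Except for the covariates and the left-out samples, whose models or sample numbers differ by construction, the cause was not tested.

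Replicate numbers appear in both groups but do not pair the samples. Deviations of the 11 same-numbered pairs correlated at −0.28 to 0.14, with a mean of −0.0059, against 0.0011 for other pairs. With the replicate block over 22 samples edgeR called 0 members (4 at an unadjusted p under 0.05, against 1570 of all tested genes). Opa1 was at −0.24 (edgeR adjusted p = 0.0620), Mief1 at −0.17 and Mfn2 at −0.02. The block called 138 genes in all and kept Trak2 and Mtfp1.

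Fundc1 and Mief1, with under 100 counts in every sample, have the widest intervals of the members.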

Other observations

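Mfn2 lay along the widest direction of variation among samples of the same group, from which the difference between smoke and air had been removed by centring. The absolute correlation of its deviations with the first principal component within groups (16.0% of variance, a component that includes Mfn2) was 0.88 over 24 samples, against 0.58 for Fis1 and at most 0.25 for the other 8 members. Of 10158 other genes, 140 correlated with Mfn2 at r of 0.8 or more and 14 at −0.8 or less. For Fis1 the counts were 2 and 0, and for each of the other 8 members 0 and 0.

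Subunits of oxidative phosphorylation lay at both ends of the correlation with Mfn2, and with Fis1. Of 81 tested subunits, 19 (23.5%) had an r with Mfn2 of 0.5 or more and 23 (28.4%) of −0.5 or less, against 11.0% and 7.98% of all 10158 other genes. With Fis1, whose deviations correlate negatively with those of Mfn2, the shares were 17.3% and 13.6%, against 3.34% and 5.56% of all genes. The values with Mfn2 ran from 0.94 for Cox7c to −0.83 for Atp5k. The mean of the subunits had a correlation with Mfn2 that did not pass adjustment (r = 0.58, permutation p = 0.00509, adjusted p = 0.204 over 40 relations; Spearman's rho = 0.60, permutation p = 0.00338, adjusted p = 0.135; r = 0.56 without 2 samples). The 40 relations set the members against that mean, the mean of ribosomal protein genes, the total count and the share of counts of Gm42418, and none passed adjustment. These measures were chosen after the data were seen.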
